A study of Mus musculus with 4 samples.

Results

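The genes described here are the collagen chains, the 42 genes whose symbol in the platform annotation has the form Col, a number, a, and a number, of 18193 genes with a probe set of their own. They were chosen by symbol alone, without regard to signal, and were grouped into 11 fibrillar chains (types I, II, III, V, XI, XXIV and XXVII), 8 chains of basement membranes and their border zone (types IV, XV and XVIII) and 23 other chains. The study's RNA came from fibrotic livers of C57BL/6 mice, which had been given 30 injections of the liver toxin carbon tetrachloride at 1 ml/kg. During the 7 days before the last injection, the mice of 1 group also received recombinant human granulocyte colony-stimulating factor (G-CSF, the cytokine that drives neutrophil production) at 100 µg/kg, and those of the other received the vehicle, called PBS here (phosphate-buffered saline carrying 0.1% albumin from mouse serum). All animals of both groups thus had the toxin, and no group without fibrosis was analysed here. Each group was measured on 2 Affymetrix mouse arrays, and the labels do not say whether replicates were separate animals, so the p-values reflect the spread among arrays, which may be technical. Labels for the material name liver tissue and also cells derived from bone marrow, and no sort or gate is stated.

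A collagen molecule is a triple helix of 3 alpha chains, each built on a repeat with glycine in the core of the helix, and many types need chains from different genes. In a scarred liver the fibrils consist mainly of types I and III with type V inside them, and hepatic stellate cells that have turned into myofibroblasts are the main makers of these chains. Type IV forms the sheet-like network of basement membranes, and type VI forms beaded microfibrils between fibrils and cells.

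Values are signals of MAS5, the Affymetrix algorithm that gives 1 linear value per probe set in arbitrary units, scaled by the authors to the same trimmed mean of 500 on each array (500.003 as computed here). Each gene was read from whichever of its probe sets was brightest on average. All differences subtract the PBS mean from the G-CSF mean of log2(signal + 23), which understates the change of weak signals, and carry the standard error (SE) from the fit of 12187 genes. Signals of different probe sets are not on a common scale, so levels are compared between arrays and not between genes. The 4 arrays were not alike as a whole. PBS replicate 1 correlated with the other arrays at a Pearson r of 0.813 to 0.844 over the tested genes, against 0.939 to 0.974 among the other 3. Its 10 T cell markers on the array had a summed signal of 19593, against 3556 and 1925 in G-CSF replicates 1 and 2 and 2298 in PBS replicate 2. The Gapdh control probe sets gave a 3'/5' ratio, which grows as RNA is shortened, of 20.2 and 19.1 with G-CSF and 15.7 and 14.8 with PBS. Hepatocyte RNA was abundant on every array: 12 hepatocyte markers summed to 343987 and 329419 with G-CSF and to 225094 and 398150 with PBS. The part of these features in the values below was not tested.

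Of the 42 chains, 27 passed the filter on low values (mean signal over 95.0, the median of non-control probe sets) and were tested. None of the 27 passed limma's test with Benjamini-Hochberg adjustment over all 12187 genes, and 0 percent of all genes tested did. Their adjusted p ran from 0.988 to 0.998, and 0 of them had an unadjusted p below 0.05, against 3.52 percent of all genes. Col8a2, Col6a2 and Col6a1 had the smallest unadjusted p (0.0787, 0.0847 and 0.0926). Col8a2 and Col4a6 were not above background on either PBS array and passed the filter through their G-CSF signals. Their place among the higher chains thus depends in part on that filter. With PBS replicate 2 left out, 7 of the 27 passed, among them Col6a1, Col6a2 and Col4a2, but so did 4689 of all 12187 genes; with PBS replicate 1 left out, 1 did, Col18a1, with a lower signal, and 516 of all genes. In size, 25 of the 27 differences lay above 0, as did 55.9 percent of all genes. With quantile normalization 24 of 27 and with median centring 23 of 27 did. Without the filter 32 of all 42 chains did, so the direction was less uniform once weak chains were included. The median difference of the 27 chains was 0.38, against 0.067 for all genes. It was 0.34 for 7 fibrillar chains, 0.37 for 8 basement membrane chains and 0.45 for 12 other chains. Chains thus had mostly higher signals with G-CSF, by amounts for which no single chain passed the test. In bulk RNA, a larger share of collagen-making cells and more collagen RNA per cell cannot be told apart.

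Both G-CSF arrays exceeded both PBS arrays in 11 chains, 40.7% of the 27, where the share of all genes was 18.6 percent. Col27a1 was the 1 chain for which both lay below, where the share of all genes was 12.1 percent. The other 15 overlapped. No chain differed 2-fold with no overlap in either direction, against 4.04 percent of all genes higher and 1.52 percent lower. In 7 chains the difference between the groups was larger than the gap between replicates in both groups, which is 25.9% of chains against 17.8% of all genes. These were Col1a2, Col6a1, Col6a2, Col8a2, Col12a1, Col13a1 and Col27a1. Col8a2, counted among the 11 and the 7, had passed the filter through its G-CSF signals.

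Most chains had the same arrays at the ends of their range. G-CSF replicate 2 had the highest signal of the 4 arrays for 21 of 27 chains (77.8%), against 18.8% of all genes, and exceeded G-CSF replicate 1 for 23 of 27. PBS replicate 1 had the lowest signal for 20 of 27 chains (74.1%), against 47.0% of all genes. In the median chain the G-CSF replicates lay 0.47 apart on the log2 scale and the PBS replicates 0.38, about as far as the median difference between the groups. For all genes these gaps were 0.21 and 0.70, so the G-CSF arrays differed more in the chains than in the median gene and the PBS arrays less. Without G-CSF replicate 2 the median difference was 0.15, with 23 of 27 chains above 0. Without PBS replicate 1 it was 0.19, with 20 of 27 above 0, and 7 chains changed side when 1 array or another was left out. Of the other 20, 19 stayed above 0 in each of these 4 comparisons and Col27a1 stayed below.

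**Figure D1:**
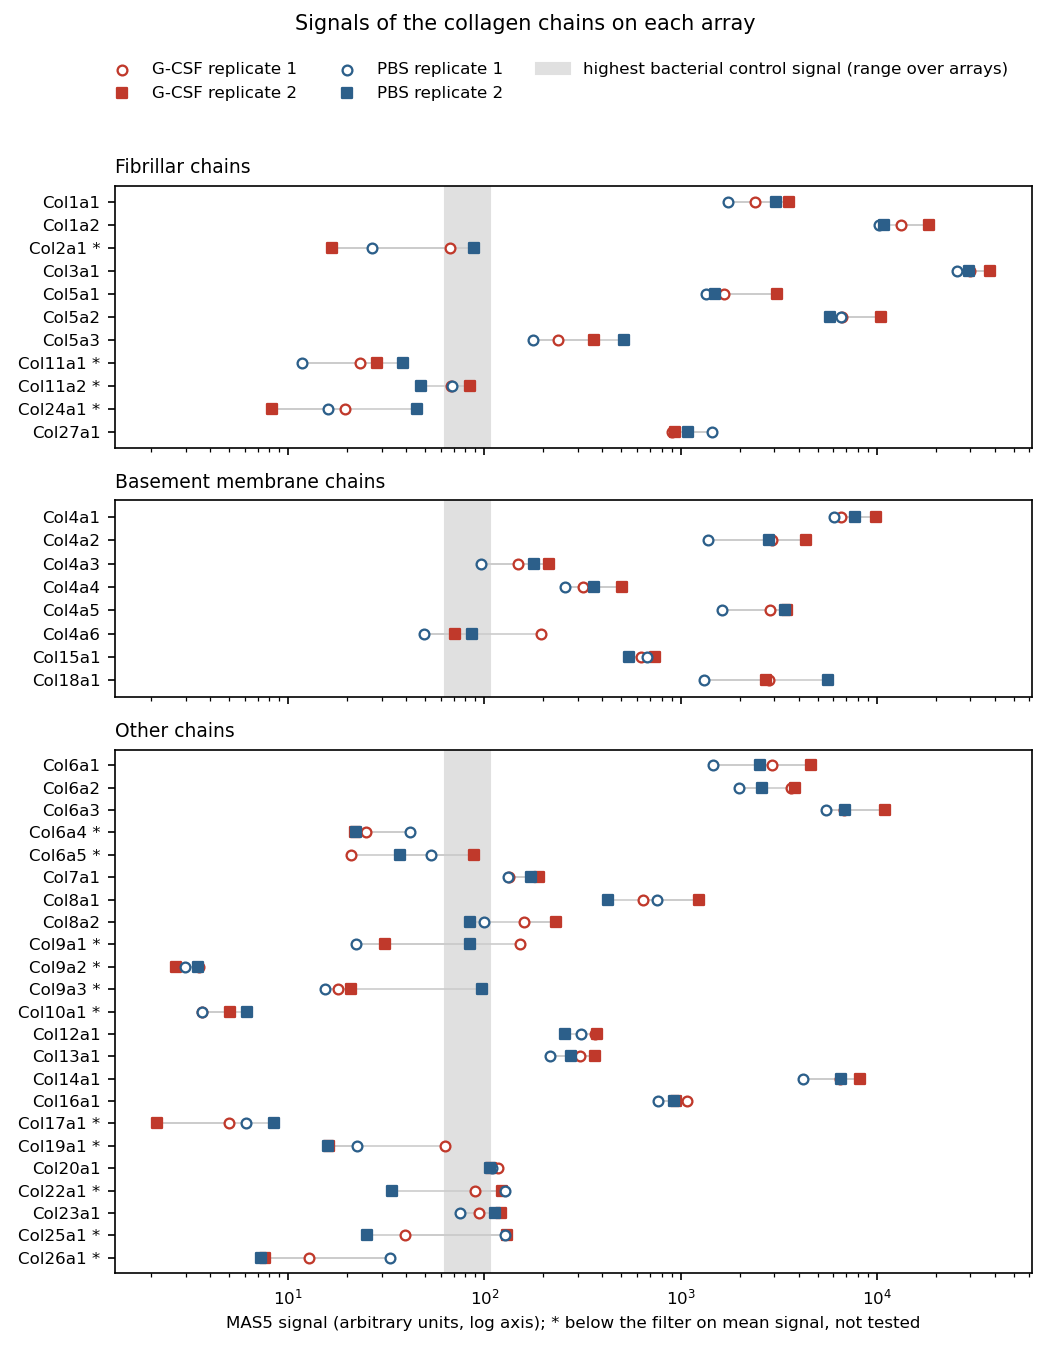
Each row is 1 of the 42 collagen chains and each point its MAS5 signal on 1 array (log axis, arbitrary units), in red for G-CSF and blue for PBS, with open circles for replicate 1 and filled squares for replicate 2. The red squares, G-CSF replicate 2, stand at the right end for 21 of the 27 tested chains, and the 15 chains marked with a star were not tested; the grey band is the range over arrays of the highest bacterial control signal.

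RefSeq promoter windows (GRCm38.p6) were at hand for 33 of the 42 chains. The 250 bases before the annotated start are shown for Col1a2 and Col3a1, the partner chain of type I and the single chain of type III, whose groups did not overlap, and for Col6a1, which had the largest difference of any chain on this scale (with a pseudocount of 1 it was Col8a2, at 1.06 against 0.93). They come from chr6:4505368-4505617 on the plus strand, chr1:45311288-45311537 on the plus strand and chr10:76726045-76726294 on the minus strand, each written 5′ to 3′ along its gene. Capitals mark, on either strand, the box spelled CCAAT, the TATA box in its form TATAAA and the GC box with the letters GGGCGG; in these 3 windows no motif overlaps another.
Col1a2: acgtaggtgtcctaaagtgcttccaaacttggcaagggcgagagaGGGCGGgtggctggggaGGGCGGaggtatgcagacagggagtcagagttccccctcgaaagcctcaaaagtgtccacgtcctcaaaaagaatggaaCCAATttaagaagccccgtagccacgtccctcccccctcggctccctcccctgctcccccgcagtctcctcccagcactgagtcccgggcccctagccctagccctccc
Col3a1: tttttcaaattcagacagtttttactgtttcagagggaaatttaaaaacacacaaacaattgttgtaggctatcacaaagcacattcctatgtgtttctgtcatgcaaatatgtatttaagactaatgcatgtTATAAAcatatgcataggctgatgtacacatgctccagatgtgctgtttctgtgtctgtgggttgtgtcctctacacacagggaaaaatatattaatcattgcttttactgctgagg
Col6a1: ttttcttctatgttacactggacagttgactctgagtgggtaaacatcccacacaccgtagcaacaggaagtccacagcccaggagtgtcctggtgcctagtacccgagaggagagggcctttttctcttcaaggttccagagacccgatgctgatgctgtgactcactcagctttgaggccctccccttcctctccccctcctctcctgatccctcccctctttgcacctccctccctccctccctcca
The Col1a2 window holds 1 CCAAT, the box bound by NF-Y in many collagen promoters, which begins 109 bases before the start, and 2 GGGCGG motifs, of the kind bound by Sp1. The Col3a1 window holds 1 TATAAA, which begins 117 bases before the start, and the Col6a1 window holds none of these motifs. Over the 36 windows of the chains, CCAAT stood in 36.1%, against 33.8% of 32851 windows of all genes. TATAAA stood in 13.9%, against 12.4%, and GGGCGG in 58.3%, against 32.7%.

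Among the 7 tested fibrillar chains, 5 differences lay above 0. Both G-CSF arrays exceeded both PBS arrays in 4 chains (18.6 percent of all genes) and lay below them in 1, Col27a1 (12.1 percent). In the other 2, Col1a1 and Col5a3, the groups overlapped. Col1a1, the major chain of type I, had signals of 2384 and 3588 in G-CSF replicates 1 and 2 and 1737 and 3050 in PBS replicates 1 and 2. The groups overlapped, and in each of them replicate 2 was the higher. Its difference was 0.34 ± 0.44 (SE, n = 2 arrays per group) and turned to −0.060 without PBS replicate 1. A weaker Col1a1 probe set gave 1.14, with 400 and 1015 for G-CSF and 197 and 386 for PBS and no overlap, so the 2 probe sets disagree on the size. Col1a2, the partner that completes the type I helix, had 13246 and 18396 with G-CSF and 10310 and 10937 with PBS. Here the PBS arrays lay within 1.06-fold of each other and both G-CSF arrays stood above them, with a difference of 0.55 ± 0.31 (1.47-fold). Another Col1a2 probe set gave 0.62, with G-CSF replicate 1 at 4019 between the PBS arrays at 3599 and 4399.

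Col3a1, which forms the thin fibrils of early scar, had 30071 and 37979 with G-CSF and 25651 and 29722 with PBS. The groups did not overlap, but G-CSF replicate 1 and PBS replicate 2 were almost equal, and the difference was 0.29 ± 0.27. Its second probe set gave 0.69, with 2980 and 5109 for G-CSF and 2729 and 2118 for PBS, also without overlap.

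Col5a1 and Col5a2 encode the chains of type V, which seeds fibrils and limits their width. Col5a1 had 1659 and 3090 with G-CSF and 1355 and 1491 with PBS, a difference of 0.66 ± 0.42. Col5a2 had 6646 and 10518 with G-CSF and 6580 and 5809 with PBS, a difference of 0.43 ± 0.36. In both chains G-CSF replicate 2 stood apart above the other 3 arrays, and without it the differences were 0.22 and 0.10. Other probe sets gave 0.66 for Col5a1 and 0.37 for Col5a2. Col5a3, another type V chain, had 237 and 363 with G-CSF and 178 and 513 with PBS. Both PBS arrays lay outside the G-CSF arrays, 1 below and 1 above, and the difference of −0.049 ± 0.58 became −0.76 without PBS replicate 1 and 0.66 without PBS replicate 2.

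Col27a1, a fibrillar chain known chiefly from cartilage, was the exception in direction. It had 907 and 932 with G-CSF and 1447 and 1092 with PBS. The G-CSF arrays lay within 1.03-fold of each other and both below PBS, with a difference of −0.44 ± 0.34 that ran from −0.64 to −0.24 as each array was left out. Its second probe set gave 0.031, with 284 and 390 for G-CSF and 289 and 366 for PBS, so the lower signal was seen with 1 of its 2 probe sets. Of the fibrillar chains that were not tested, Col2a1, Col11a1 and Col24a1 lay below background on all 4 arrays, with signals between 8.24 and 89.0. Background here is the highest signal of 27 bacterial control probe sets on that array (86.4 and 63.0 with G-CSF, 106 and 94.6 with PBS). Col11a2 was above it on G-CSF replicate 2 alone (84.3). Col2a1, Col11a1 and Col11a2 are chains of cartilage fibrils, and of 7 cartilage markers Matn1, Matn3, Cnmd and Hapln1 were likewise above background on no array. The other 3 were detected. Comp (104 and 112 with G-CSF, 108 and 121 with PBS) and Sox9 (293 and 539, 209 and 509) were above background on all 4 arrays. Acan, with 138 and 88.9 with G-CSF and 137 and 59.4 with PBS, was above it except on PBS replicate 2.

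All 8 basement membrane chains passed the filter, and all had a difference above 0 (55.9 percent of all genes). In 7 of the 8 the groups overlapped. In the other 1 (12.5%) both G-CSF arrays were higher, against 18.6 percent of all genes. Col18a1 had a difference of −0.031 with median centring. Col4a1 and Col4a2, the chains of the widespread type IV helix, are transcribed head to head, and their RefSeq windows on chromosome 8 overlap by 78 bases. Col4a1 had 6604 and 9867 with G-CSF and 6039 and 7729 with PBS, with overlap and a difference of 0.24 ± 0.36. Col4a2 had 2919 and 4377 with G-CSF and 1373 and 2826 with PBS. This was the 1 basement membrane chain without overlap, although G-CSF replicate 1 exceeded PBS replicate 2 by little, and its difference was 0.85 ± 0.48 (1.80-fold). A second Col4a1 probe set gave 0.47.

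Col4a3, Col4a4 and Col4a5 form the type IV helix of filtration and lung membranes. Col4a3 had 148 and 214 with G-CSF and 95.8 and 178 with PBS, a difference of 0.38 ± 0.46. Col4a4, its neighbour on chromosome 1, had 319 and 501 with G-CSF and 258 and 361 with PBS, a difference of 0.37 ± 0.40. Both chains overlapped between the groups and had the same order of arrays, with PBS replicate 1 lowest and G-CSF replicate 2 highest. Col4a5 had 2851 and 3492 with G-CSF and 1619 and 3400 with PBS, where PBS replicate 1 alone was low, and its difference of 0.42 ± 0.46 was −0.11 without that array. Col4a6, which lies beside Col4a5 on the X chromosome, was not above background on either PBS array (49.1 and 86.8) and had 193 and 70.4 with G-CSF. The ratio of its G-CSF signals to the PBS background limits, averaged on the log scale with nothing added, was 1.16. It is not a lower limit on the change, since G-CSF replicate 2 lay below PBS replicate 2 and the groups overlapped. Limma gave a difference of 0.68 ± 0.60 with an adjusted p of 0.988. With this probe set both values rested on G-CSF replicate 1, and without that array the difference was 0.070. A second probe set, below the filter, had 113 and 91.9 with G-CSF and 13.8 and 42.2 with PBS. There the groups did not overlap, and the difference was 1.35.

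Types XV and XVIII link basement membranes to the matrix around them, and the end of the type XVIII chain is released as endostatin. Col15a1 had 629 and 737 with G-CSF and 678 and 548 with PBS, a difference of 0.15 ± 0.33. Col18a1, a chain that hepatocytes also make, had 2832 and 2721 with G-CSF and 1319 and 5632 with PBS. The G-CSF arrays lay within 1.04-fold of each other, between PBS arrays that lay 4.27-fold apart, the widest gap between PBS replicates of any tested chain. Its difference of 0.023 ± 0.72 became −1.01 without PBS replicate 1 and 1.06 without PBS replicate 2, and its second probe set showed the same layout (2831 and 2798 with G-CSF, 1438 and 5116 with PBS). The 12 hepatocyte markers were laid out in the same order of PBS arrays: their median deviation from each gene's mean was 0.16 and 0.061 with G-CSF and −0.79 and 0.54 with PBS. Their part in the Col18a1 signal was not tested.

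Type VI had 3 tested chains, 2 of them higher on both G-CSF arrays, where the share of all genes was 18.6 percent. Col6a1 had 2929 and 4644 with G-CSF and 1460 and 2552 with PBS, a difference of 0.93 ± 0.45 (1.90-fold) with no overlap. Col6a2, its neighbour on chromosome 10, had 3640 and 3824 with G-CSF and 1994 and 2593 with PBS, a difference of 0.71 ± 0.33 (1.63-fold). Both G-CSF arrays lay above both PBS arrays in these 2 chains, and in Col6a2 the G-CSF replicates lay within 1.05-fold of each other. A second Col6a2 probe set gave 0.37 and overlapped (1725 and 1573 with G-CSF, 896 and 1782 with PBS). Col6a3, the longest of the 3 chains and the source of the fragment endotrophin, had 6810 and 11033 with G-CSF and 5525 and 6861 with PBS. Its groups overlapped narrowly, G-CSF replicate 1 lying just under PBS replicate 2, with a difference of 0.49 ± 0.37. Col6a4 and Col6a5, related chains, lay at 20.9 to 88.5 and were not tested, Col6a5 being above background on G-CSF replicate 2 alone.

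Type VIII, a short-chain network collagen of vessel walls, had 1 chain near background. Col8a2 had 159 and 231 with G-CSF and was not above background on either PBS array (99.6 and 84.1). It was at least 1.91-fold higher with G-CSF, taken as the ratio of the signals to the background limit with nothing added. The difference with 23 added, a smaller measure for weak signals, was 0.91 ± 0.41 (limma, adjusted p = 0.988), and it was 0.67 or more whichever array was left out. Col8a1 had 640 and 1242 with G-CSF and 762 and 426 with PBS, with overlap and a difference of 0.63 ± 0.49. Its second probe set gave 0.45.

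Types XII, XIV and XVI sit on the surface of fibrils or link them. Col12a1 had 367 and 374 with G-CSF and 312 and 256 with PBS, a difference of 0.36 ± 0.33. Another Col12a1 probe set gave 0.12 and overlapped (78.6 and 153 with G-CSF, 139 and 70.6 with PBS). Col14a1 had 6523 and 8183 with G-CSF and 4199 and 6617 with PBS, a difference of 0.47 ± 0.37, and another probe set gave 0.54. Col16a1 had 1081 and 944 with G-CSF and 766 and 927 with PBS, a difference of 0.26 ± 0.33. With their brightest probe sets, Col12a1 and Col16a1 did not overlap between the groups, while in Col14a1 G-CSF replicate 1 lay just under PBS replicate 2. Col13a1, a transmembrane collagen, had 307 and 366 with G-CSF and 215 and 278 with PBS, without overlap, a difference of 0.42 ± 0.35. Col7a1, the chain of the anchoring fibrils of skin, had 134 and 190.01 with G-CSF and 131 and 172 with PBS, a difference of 0.076 ± 0.41. The groups overlapped, as they did in Col20a1 (0.050 ± 0.40) and Col23a1 (0.16 ± 0.45), whose signals of 75.3 to 121 lay around background.

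Of the 15 chains that were not tested, 9 were above background on no array, 4 on 1 array and 2 on more. The 2 were Col22a1, with 89.2 and 123 with G-CSF and 127 and 33.8 with PBS, and Col25a1, with 39.3 and 130 with G-CSF and 127 and 25.1 with PBS. The groups overlapped in both, and PBS replicate 2 was the lowest array. Col9a1 was above background on G-CSF replicate 1 alone (153) and Col9a3 on PBS replicate 2 alone (97.0), both chains of the type IX collagen of cartilage. Col9a2, Col10a1 and Col17a1, of cartilage, growth plate and skin, had signals of 2.13 to 8.43, and Col19a1 and Col26a1 had 7.24 to 62.7. Around the filter, Col4a6 just inside had a mean signal of 99.9 and Col22a1 just outside had 93.2. Over all 42 chains there were 82 probe sets. Of 14 second probe sets above the filter, 1, that of Col27a1, lay on the other side of 0 from the one used.

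**Figure D2:**
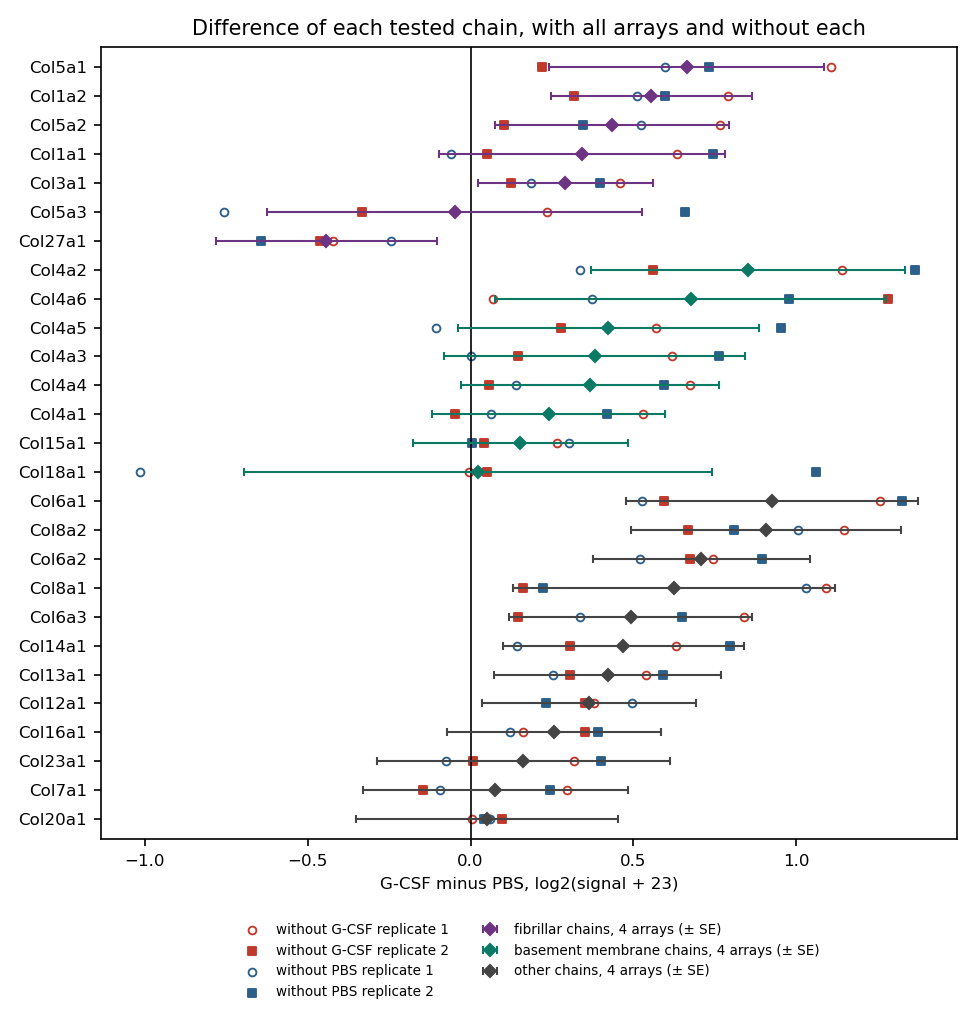
Diamonds give the difference of each of the 27 tested chains, as the G-CSF mean less the PBS mean of log2(signal + 23), with bars of 1 standard error, and the small symbols give it with 1 array left out. The differences run from −0.44 for Col27a1 to 0.93 for Col6a1; filled red squares (without G-CSF replicate 2) and open blue circles (without PBS replicate 1) lie mostly left of the diamonds.

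Chains that assemble into 1 molecule were compared within each array, as the difference of their log2 values, in 9 pairs. Only shifts of this value between arrays carry meaning, since its level depends on the probe sets. Col4a2 minus Col4a1 was −1.17 and −1.17 with G-CSF and −2.12 and −1.44 with PBS, a shift of 0.61. The second Col4a1 probe set differed by 0.47 between the groups rather than 0.24, which would make this shift smaller. Col6a1 minus Col6a3 was −1.21 and −1.24 with G-CSF and −1.90 and −1.42 with PBS, a shift of 0.43. In these 2 pairs the groups did not overlap and the G-CSF arrays nearly coincided, while in the other 7 pairs the groups overlapped. With 2 arrays against 2, an exact two-sided permutation test cannot go below p = 0.333, which is the value of both pairs. Random labels would separate the groups at that same rate, so 2 of 9 pairs is not read as a result. Col1a1 minus Col1a2 shifted by −0.21, Col5a1 minus Col5a2 by 0.23 and Col4a3 minus Col4a4 by 0.016. The shift was 0.22 for Col6a2 minus Col6a3 and for Col6a1 minus Col6a2. The pairs of Col4a6 and Col8a2 are given no shift, since these chains were not above background on either PBS array.

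**Figure D3:**
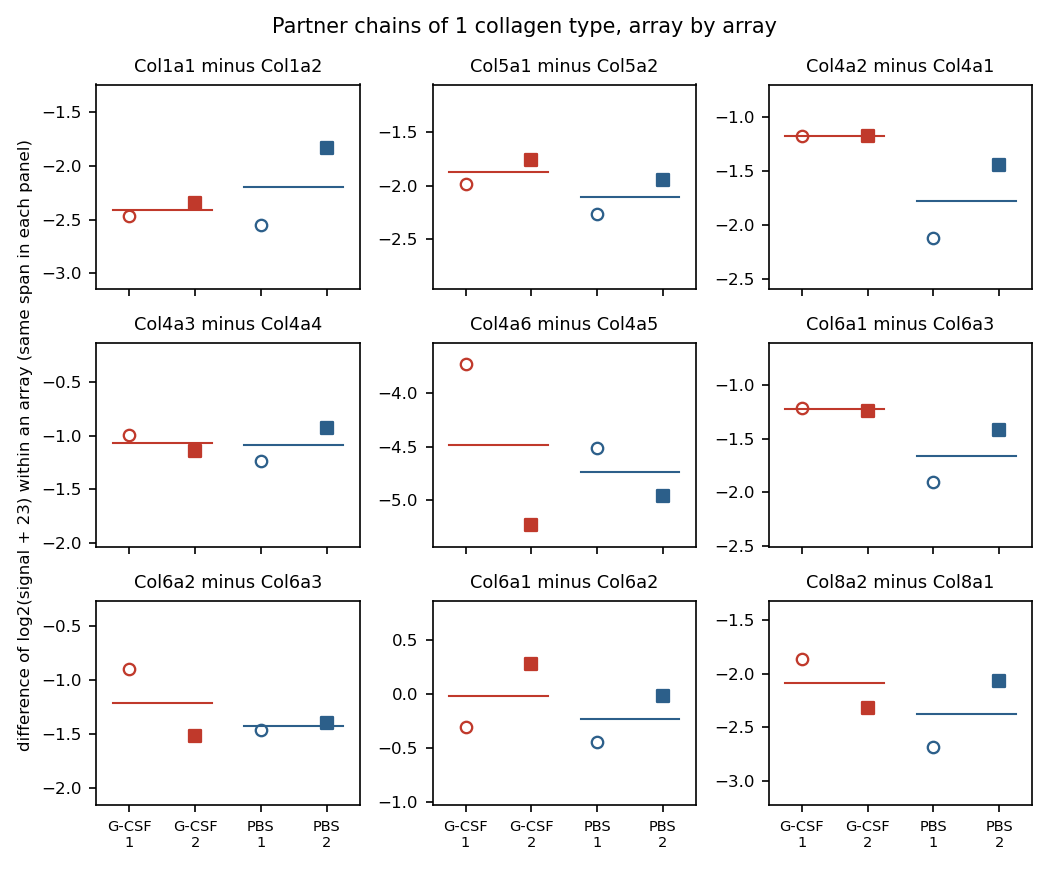
Each panel gives, for 1 pair of chains, the difference of their log2(signal + 23) values within each of the 4 arrays, with a line at the mean of each group (n = 2 arrays). Col4a2 minus Col4a1 and Col6a1 minus Col6a3 are the 2 panels in which the red points lie above both blue points; in the panels of Col4a6 and Col8a2 the PBS points rest on signals not above background.

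Genes for making collagen differed by amounts in the same range as the chains. Of 24 listed genes for hydroxylation, glycosylation, folding and export of chains, 20 were tested, 0 passed in either direction, and the median difference was 0.32. Ppib, a prolyl isomerase of the folding complex, had 25678 and 21433 with G-CSF and 11248 and 19656 with PBS (0.66 ± 0.37). P3h1, a prolyl 3-hydroxylase of the same complex, had 235 and 264 with G-CSF and 114 and 213 with PBS (0.60 ± 0.43). Both had no overlap, as had Sparc, a collagen-binding chaperone-like protein (0.60 ± 0.40), while Creb3l1, a transcription factor for secretory load and collagen genes, overlapped (0.58 ± 0.51). Of 13 listed genes for procollagen cleavage and crosslinking, 9 were tested and 0 passed in either direction, with a median of 0.32. Pcolce, which speeds removal of the C-propeptide, had 3905 and 7143 with G-CSF and 2000 and 3860 with PBS (0.92 ± 0.50). Lox, which crosslinks collagen and elastin, had 729 and 1378 with G-CSF and 691 and 582 with PBS (0.64 ± 0.43). Adamts3, an N-propeptide protease (0.69 ± 0.39), did not overlap either, and Loxl1, a relative of Lox, did (0.94 ± 0.54). With the mean of all probe sets, Lox differed by 0.19 and Adamts3 by 0.46, and with specific probe sets only Ppib differed by 0.43.

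PBS replicate 1 had a low median deviation in the collagen receptors (−0.75), as in the degradation genes (−0.87) and hepatocyte markers (−0.79). It was not low in the T cell (2.81) or cartilage markers (−0.042). Of 11 listed receptor genes, 8 were tested and 0 passed in either direction, with a median difference of 0.24. Ddr2, a receptor kinase for fibrillar collagen, had 689 and 772 with G-CSF and 297 and 668 with PBS (0.68 ± 0.47). Itga1, the alpha chain of a collagen-binding integrin, differed by 0.77 ± 0.55, the inhibitory leukocyte receptor Lair1 by 0.61 ± 0.49 and Itga10 by −0.34 ± 0.38. In the first 3 PBS replicate 1 was by far the lowest array, and without it Itga1 differed by 0.097 and Lair1 by 0.017. In Itga10 PBS replicate 1 was the highest array (166). With the mean of all probe sets, Ddr2 differed by 0.40 and Lair1 by 0.19.

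Of 12 listed collagen-degrading enzymes 10 were tested, 0 passed in either direction and the median was 0.53. Mmp8, Mmp9 and Mmp3 had the largest differences, and the other 7 ran from −0.43 to 0.57. Mmp8, the neutrophil collagenase, had 8160 and 6008 with G-CSF and 317 and 203 with PBS, 25.3-fold apart (4.66 ± 0.39, adjusted p = 0.0676 by limma). Mmp9, a gelatinase that neutrophils store, had 10778 and 6360 with G-CSF and 573 and 290 with PBS (4.27 ± 0.49, adjusted p = 0.131). Mmp3, stromelysin 1, differed by 1.41 ± 0.51 and Prep, a prolyl peptidase, by −0.43 ± 0.33 (−0.15 with the mean of all probe sets). For Mmp8 and Mmp9 both G-CSF arrays were thus far above both PBS arrays, with G-CSF replicate 1 the higher, the reverse of the order of the chains. Neutrophil markers, 2 of which are Mmp8 and Mmp9, also set the groups apart. All 13 were higher in both G-CSF arrays (18.6 percent of all genes), with sums of 269701 and 237665 with G-CSF and 26516 and 8837 with PBS. The order of the G-CSF arrays varied among them. Mpo, Ctsg, Prtn3, Elane, Cxcr2 and Csf3r were higher in replicate 2 and the other markers in replicate 1.

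Markers of the cells that make collagen lay beside the chains. Of 16 stellate cell and myofibroblast markers, 15 were tested, 0 passed in either direction, 14 had a difference above 0 and the median was 0.53. Acta2, the smooth muscle actin of myofibroblasts, had 8941 and 10426 with G-CSF and 5164 and 3200 with PBS, without overlap (1.24 ± 0.37). Timp1, an inhibitor of matrix metalloproteinases, had 638 and 616 with G-CSF and 369 and 374 with PBS, also without overlap (0.72 ± 0.31). With the mean of all probe sets of a gene in place of the brightest, Acta2 differed by 0.54. The list's summed signal was 59519 and 64950 with G-CSF and 37617 and 66695 with PBS, so PBS replicate 1 was low and PBS replicate 2 the highest. Thy1, the marker with a difference below 0 (−1.26), gave 9137 of the sum of PBS replicate 1, the array with high T cell markers. It had 876 and 1050 with G-CSF and 577 in PBS replicate 2. Of 10 portal fibroblast and mesothelial markers, 8 were tested, 7 had a difference above 0 (55.9 percent of all genes) and 4 lay higher on both G-CSF arrays (18.6 percent of all genes), with sums of 7814 and 9139 with G-CSF and 4357 and 6773 with PBS. The mesothelial markers Msln and Upk3b were above background on no array. The sums were 6762 and 8118 with G-CSF and 3053 and 8745 with PBS for 10 endothelial markers, of which Pecam1 was above background on no array. They were 2211 and 3019 with G-CSF and 1699 and 3070 with PBS for the 5 bile duct markers on the array. Differences lay above 0 for 9 of 9 tested endothelial, 4 of 5 bile duct and 11 of 12 hepatocyte markers (medians 0.37, 0.58 and 0.20), for 2 of 3 tested cartilage markers and for 1 of 9 T cell markers (median −1.66), and 0 of any list passed. The part of these cell types in the chains' signals was not tested.

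**Figure D4:**
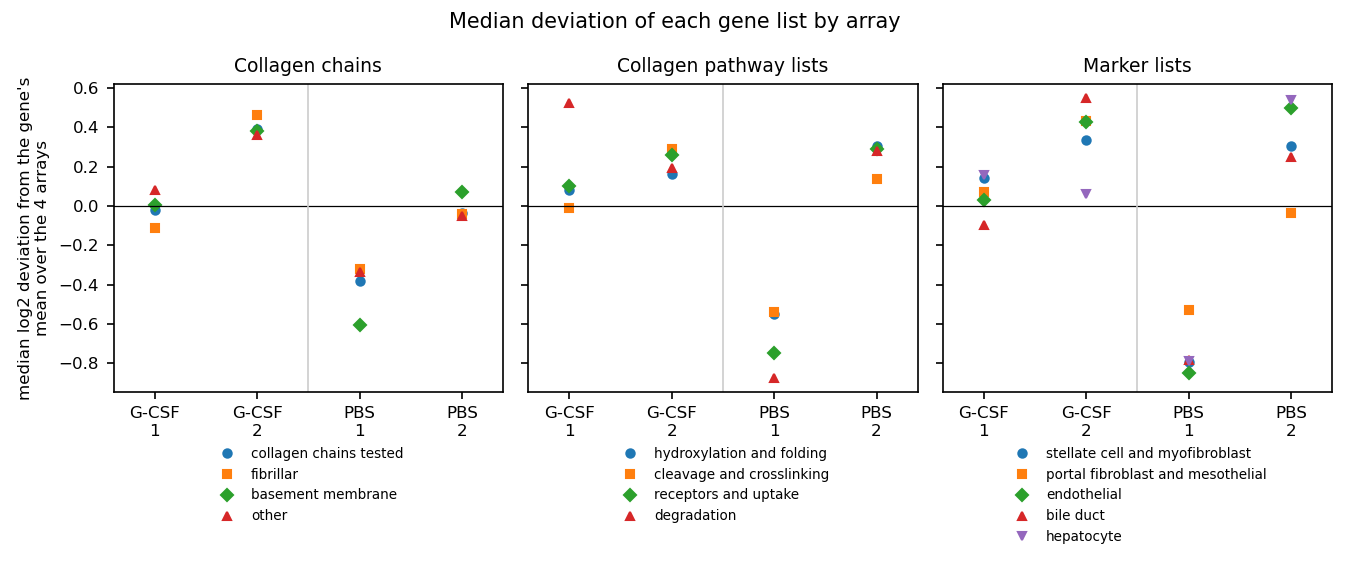
Points give, for each array, the median over a list's tested genes of the deviation from each gene's mean over the 4 arrays (log2 scale). The 27 collagen chains stand at −0.023 and 0.39 with G-CSF and −0.38 and −0.034 with PBS, while the stellate cell and myofibroblast markers stand at 0.14 and 0.33 with G-CSF and −0.79 and 0.30 with PBS.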

How the data were processed

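Total RNA was labelled from 40 ng with the 3' IVT Express kit and measured on 4 arrays, per the labels' protocols. The authors deposited linear intensity values for each probe set, made with MAS5 (no version stated), per the submitters' processing notes. Their scaling was kept, since all 4 arrays had the same 2% trimmed mean. All 4 columns were matched to samples. Precision is limited by the number of arrays.

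Of 45101 probe sets, 64 controls, 932 listing several genes and 9160 listing none were left out. The remaining 34945 were named from the platform annotation, with symbols updated by Entrez ID. Each gene was taken by its probe set of highest mean signal. To each signal 23 was added as a pseudocount (the overall median, 92.9, over 4) before log2. The test was that of limma 3.58.1 (R 4.3.3; lmFit, then eBayes with a trend; two-sided), adjusted by Benjamini-Hochberg over 12187 genes at 0.05. Residual degrees of freedom were 2 and prior ones 3.13. When tested on simulated data, the fit recovered the size of known changes and called the large ones, but called hardly any of 2-fold. The simulated arrays had independent noise and none stood apart as PBS replicate 1 did, so these rates may not hold for the data. Figures used Python 3.11.15 and matplotlib 3.10.9. The background limit was chosen after the data were seen. The text names every chain and, of each list, up to 4 genes with the smallest p, besides markers not above background and Thy1. The members and lists were chosen with earlier results of these data known. Sequences are from RefSeq.

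Alternatives were 2 normalizations, 2 pseudocounts, 2 filters, 2 variance models, array weights, 2 choices of probe set, a replicate block, leaving out each array and, added after seeing the data, chains above background on all arrays only. Over the tested genes, deviations of same-numbered arrays from their group means correlated at −0.038, which cannot settle whether these arrays were paired. In the chains, replicate 2 was the higher in 23 of 27 with G-CSF (52.2% of all genes) and 20 of 27 with PBS (56.1%).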

Additional observations from a re-analysis of the deposited data

How the results depend on the processing

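With 2 arrays per group, a difference of the size seen in the chains is hard to call, and weak signals lie near background. Even Mmp8, at 25.3-fold, had an adjusted p of 0.0676 (limma). No chain was called by limma with another normalization, pseudocount, filter, variance model or choice of probe set, with array weights or with the replicate block. The median difference stayed between 0.29 (no filter, 42 chains) and 0.43 (75th percentile filter, 17 chains) in these settings and was 0.37 over the 23 chains above background on all arrays. With 1 array left out it ran from 0.15 to 0.60. The number of chains called then ran from 0 to 7: without PBS replicate 2 there were 7 (Col4a2, Col4a5, Col6a1, Col6a2, Col14a1 and Col18a1 higher, Col27a1 lower), and without PBS replicate 1 there was 1, Col18a1, lower. The single PBS array left is then assumed to vary like the G-CSF arrays.

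Over all genes, 33 were called with array weights, 11 with specific probe sets only and 92 with the replicate block, and 6 to 4689 with 1 array left out. At least 2-fold higher with no overlap were 1 chain with a pseudocount of 1 (Col8a2), 1 with the mean of all probe sets (Col4a6) and 1 to 5 with 1 array left out; 2-fold lower were 0 to 1. Directions turned for Col18a1 with median centring (−0.031), for Col20a1 with quantile normalization (−0.0029) and median centring (−0.0043), and for Col5a3 with the mean of all probe sets (0.14). With 1 array left out, the differences ran from −1.01 to 1.06 for Col18a1, −0.76 to 0.66 for Col5a3, −0.060 to 0.74 for Col1a1, −0.049 to 0.53 for Col4a1, −0.11 to 0.95 for Col4a5, −0.15 to 0.30 for Col7a1, −0.076 to 0.40 for Col23a1 and −0.044 to 1.20 for Creb3l1. The cause was not tested. The other 19 chains kept their direction in every setting run. Mmp8 passed with array weights, specific probe sets only and the replicate block, and Mmp9 with array weights and the replicate block. Acta2 passed when either PBS array was left out, Mmp3 without PBS replicate 1, and Creb3l1, Ddr2, Itga1, Lair1, Loxl1, Pcolce and Ppib without PBS replicate 2. Mmp8 and Mmp9 also passed without each array in turn except G-CSF replicate 1.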
